A study of Mus musculus with 24 samples.

Results

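Expression of 26 genes of cholesterol synthesis and its control by SREBP was followed in sorted mouse spermatogonia (SPG). The members were listed by gene symbol as genes of this pathway, and all 26 were found among the 23177 genes of the Zbtb16 table and the 21688 genes of the Sox3 table. They were 8 genes of the mevalonate steps, 11 of the squalene and sterol ring steps, 5 of SREBP control, and 2 of sterol storage and transport (Soat1 and Stard4). All 26 passed the filter on low values in both tables.

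Cells make cholesterol from acetyl-CoA, first to mevalonate and isoprenoids, then to squalene, and then through a series of ring modifications. The pathway is transcribed under SREBP proteins, membrane-bound factors that SCAP escorts out of the endoplasmic reticulum when sterols are low and that INSIG proteins hold back when sterols are high. In the testis, Leydig cells use cholesterol as the substrate of androgen synthesis, while germ cells need it for membranes.

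RNA was sequenced from testes of male mice at postnatal day 7, with 3 libraries in each of 8 groups. Each isolation pooled the testes of 3 mice. Cells were sorted with magnetic beads against THY1, for undifferentiated SPG (uSPG), or against KIT, for differentiating SPG (dSPG). Zbtb16 null mice carried the luxoid allele in every cell, whereas the Sox3 conditional knockout (cKO) removed a floxed allele with Ddx4-Cre, which acts in germ cells, and each line had its own wild-type (WT) controls. The labels did not say whether the libraries of a group came from separate litters, so p-values measure the spread between these pools.

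The depth, estimated from the values in mega-reads (M), was 25.9 to 35.1 M in the Zbtb16 libraries. In the Sox3 libraries it was 28.1 to 31.8 M for replicate 1 and 11.0 to 14.9 M for replicates 2 and 3. Zbtb16 RNA was at 17.1 ± 1.33 FPKM (fragments per length of transcript and depth of library; mean ± SD, n = 3 here and below) in null THY1+ uSPG and at 52.1 ± 8.93 FPKM in WT THY1+ uSPG. Sox3 reached at most 0.0820 FPKM in any cKO library and at least 6.28 FPKM in every WT library of its table. The sorting markers matched the fraction labels in the Zbtb16 table and in the cKO. In the WT libraries of the Sox3 table they did not: Thy1 was at 0.213 to 0.254 FPKM in the libraries labelled THY1+ and at 3.59 to 4.06 FPKM in those labelled KIT+, and Kit was at 45.6 to 80.1 FPKM and 13 to 18.8 FPKM. These libraries are therefore called WT labelled THY1+ and WT labelled KIT+, and were not regrouped.

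Neither fraction was free of RNA from other cell types. The summed level of 8 Leydig cell markers was 112 to 144 FPKM in WT THY1+ uSPG and 1329 to 2383 FPKM in WT KIT+ dSPG, and it was 85.8 to 108 FPKM and 2211 to 3263 FPKM in the null fractions. In the Sox3 table it was 1307 to 2154 FPKM in WT labelled THY1+, 88.7 to 139 FPKM in WT labelled KIT+, 94.9 to 137 FPKM in cKO THY1+ and 2633 to 5191 FPKM in cKO KIT+. Star, Cyp11a1, Cyp17a1, Hsd3b1 and Insl3, which define Leydig cells, were above 0 in all 24 libraries. The 7 macrophage markers in the tables ran the other way, with sums of 769.7 to 867 FPKM in WT THY1+ and 5.83 to 7.70 FPKM in WT KIT+. Germ cell markers, 6 genes, summed to 1083 ± 118 FPKM and 1112 ± 140 FPKM in these groups. In bulk RNA of this kind, fewer cells of a type and less RNA per cell cannot be told apart.

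The region before the transcription start is where SREBP is known to act, with NF-Y and Sp1 beside it. RefSeq windows (GRCm38.p6) were given for 22 of the 26 members and were searched on both strands, over 250 bases before and 50 after the start, for TCACNCCAC (a sterol regulatory element form), CCAAT (the NF-Y box), GGGCGG (the Sp1 box) and AGGTCA (a nuclear receptor site). The sequences below are cut at the annotated gene start, and capitals mark TCACNCCAC and CCAAT on either strand, so that ATTGG is CCAAT read from the other strand. Hmgcs1 is shown as the member that held the sterol element form, Cyp51 and Soat1 as members that differed between fractions, and Insig1 as a textbook SREBP target that was not called between fractions. The CCAAT box of Cyp51 starts 29 bases before the RefSeq start, in the part cut away here.
Hmgcs1 (chr13:119690101-119690350, plus strand): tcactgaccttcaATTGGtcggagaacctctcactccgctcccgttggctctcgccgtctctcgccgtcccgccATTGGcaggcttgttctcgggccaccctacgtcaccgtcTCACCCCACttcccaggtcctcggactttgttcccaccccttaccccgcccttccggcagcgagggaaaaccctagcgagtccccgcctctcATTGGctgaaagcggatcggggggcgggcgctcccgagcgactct
Cyp51 (chr5:4104747-4104947, minus strand): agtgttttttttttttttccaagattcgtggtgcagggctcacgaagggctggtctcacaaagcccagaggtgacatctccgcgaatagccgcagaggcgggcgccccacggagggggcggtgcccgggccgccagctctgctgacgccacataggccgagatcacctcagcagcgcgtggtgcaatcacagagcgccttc
Soat1 (chr1:156474332-156474578, minus strand): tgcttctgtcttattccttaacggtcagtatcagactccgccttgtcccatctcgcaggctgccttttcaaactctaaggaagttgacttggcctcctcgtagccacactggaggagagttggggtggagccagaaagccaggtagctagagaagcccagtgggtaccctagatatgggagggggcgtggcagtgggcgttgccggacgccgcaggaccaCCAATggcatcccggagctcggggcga
Insig1 (chr5:28071162-28071362, plus strand): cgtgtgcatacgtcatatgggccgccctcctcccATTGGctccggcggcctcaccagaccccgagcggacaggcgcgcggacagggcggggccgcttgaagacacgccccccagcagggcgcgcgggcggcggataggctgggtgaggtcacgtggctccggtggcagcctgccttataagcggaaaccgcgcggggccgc
The Hmgcs1 window held TCACCCCAC starting 137 bases before the RefSeq start, with CCAAT boxes starting 237, 176 and 45 bases before it. This form was found in 1 of the 22 members, and in 1.44% of 27025 genes with a window. CCAAT was in 20 of the 22 members, or 90.9%, against 41.1% of all genes and 43% of 10315 genes expressed in the Zbtb16 table. GGGCGG was also in 20 members, against 67.8% of the expressed genes, and AGGTCA was in 3, or 13.6%, against 14.9%. These matches describe the sequence and are not binding sites, and the letters of the first motif are only one form of the element.

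In WT THY1+ uSPG the levels of the members, which FPKM makes comparable per length, ran from 1.94 to 76.1 FPKM with a median of 16.7 FPKM. Hmgcs1, the HMG-CoA synthase, was highest at 76.1 ± 3.14 FPKM. Insig1, the retention protein, followed at 62.5 ± 11.0 FPKM, and Fdps, which makes farnesyl diphosphate, was at 60.1 ± 6.59 FPKM. These 2 lay within their spread of each other. Fdft1, the squalene synthase, and Srebf2, the SREBP gene most tied to cholesterol synthesis, were at 38.5 ± 5.84 and 31.2 ± 7.73 FPKM. Lowest were Tm7sf2, a sterol reductase, at 1.94 ± 0.289 FPKM, Idi1, the isopentenyl diphosphate isomerase, at 2.50 ± 1.31 FPKM, and Ebp, the sterol isomerase, at 3.72 ± 0.243 FPKM. Hmgcs1 had the highest mean in 6 of the 8 groups, with Insig1 above it in null THY1+ uSPG and Fdps in WT labelled KIT+.

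**Figure D1:**
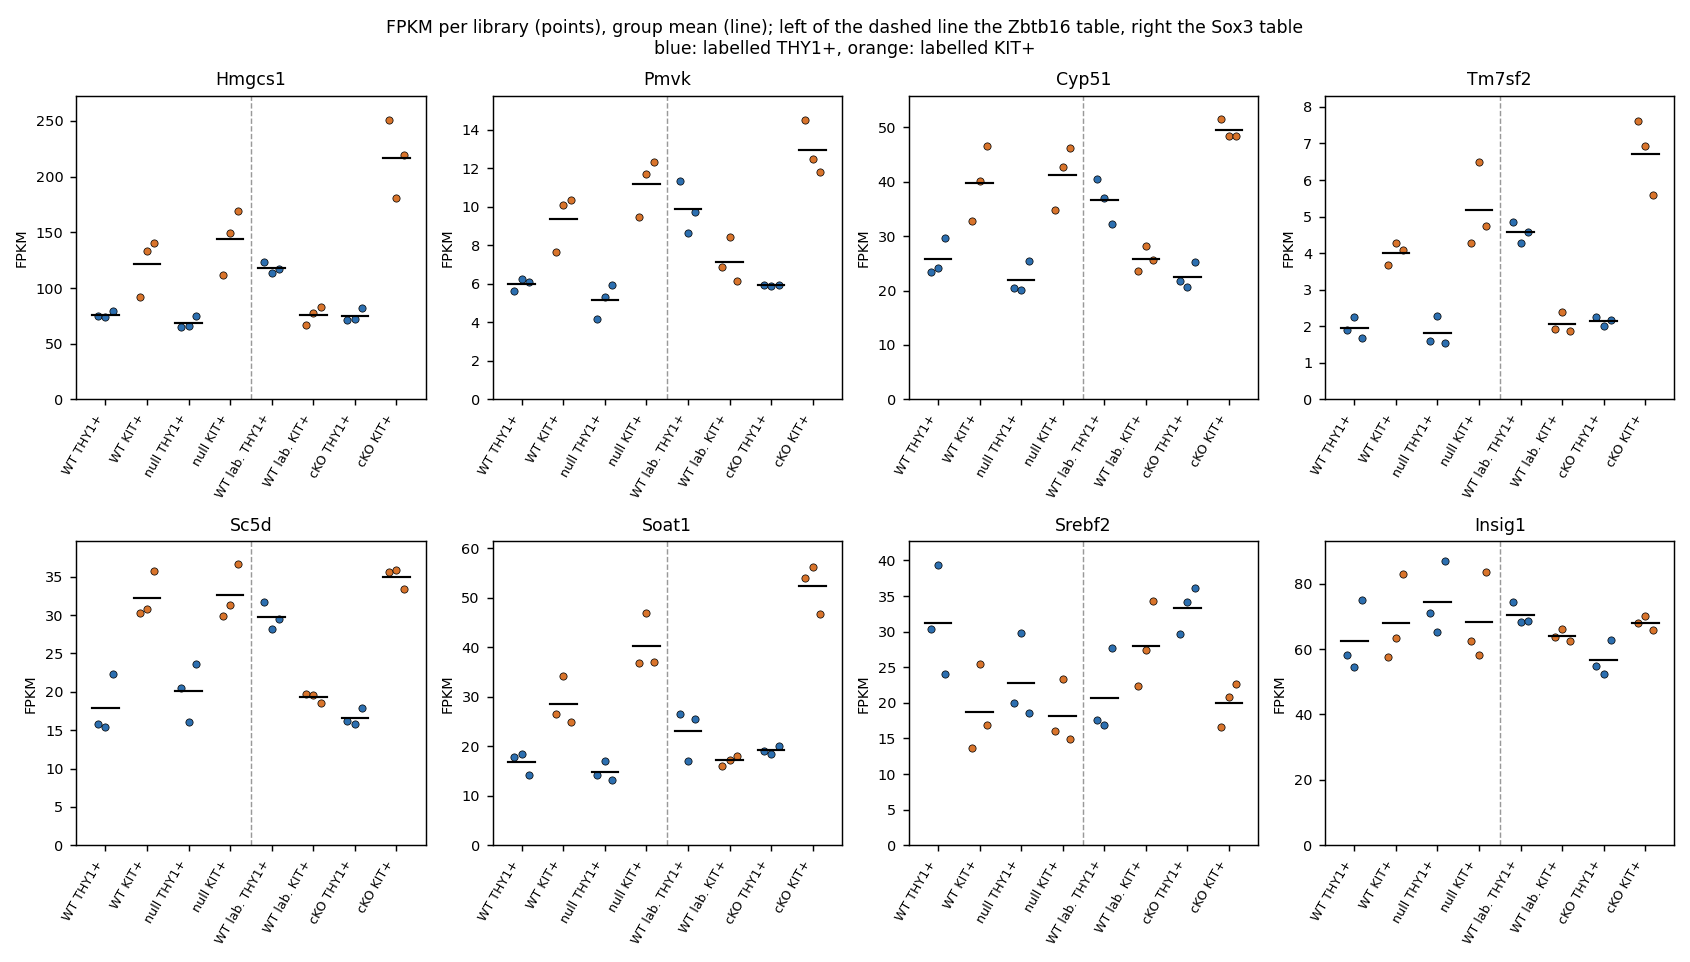
FPKM of 8 members (vertical axes, linear from 0) in the 24 libraries, with 1 point per library, a line at the mean of each group of 3, blue for groups labelled THY1+ and orange for groups labelled KIT+. Hmgcs1, Pmvk, Cyp51, Tm7sf2, Sc5d and Soat1 are higher in KIT+ than in THY1+ in the Zbtb16 table and in the cKO with their means in the opposite order in the WT of the Sox3 table, whereas Insig1 keeps group means of 56.6 to 74.4 FPKM.

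The first question was how the pathway differs between the 2 sorted fractions. In the Zbtb16 table, 6 of 26 members were higher in WT KIT+ dSPG than in WT THY1+ uSPG and 0 were lower (limma, adjusted p at most 0.05 and at least 1.5-fold), where 7.21% of the 22374 genes tested were higher and 14% lower. The median log2 change of the members was 0.24, against -0.03 over all genes, and 22 of 26 changes were above 0, against 47.6% of all genes. The 6 were Hmgcs1, Pmvk, Cyp51, Tm7sf2, Sc5d and Soat1. The calls of Tm7sf2, Sc5d and Soat1 were kept without each of the 12 libraries in turn. The other 3 were each lost in 3 of these fits: Hmgcs1 without WT THY1+ replicate 2 or WT KIT+ replicate 2 or 3 (log2 changes over the 12 fits of 0.54 to 0.85), Pmvk without WT THY1+ replicate 1 or WT KIT+ replicate 2 or 3 (0.55 to 0.76), and Cyp51 without WT THY1+ replicate 1 or 2 or WT KIT+ replicate 3 (0.50 to 0.75). Without WT KIT+ replicate 3 the count was 3.

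Hmgcs1 was at 74.9, 73.7 and 79.6 FPKM in the 3 WT THY1+ libraries and at 91.6, 133 and 141 FPKM in the WT KIT+ libraries. The groups did not overlap, though the first KIT+ library lay nearer to THY1+ than to the other KIT+ libraries. The log2 change was 0.65 ± 0.17 (SE), with an adjusted p of 0.0160. Pmvk, the phosphomevalonate kinase, was at 5.64, 6.24 and 6.09 FPKM in THY1+ and at 7.67, 10.1 and 10.4 FPKM in KIT+. It rose by 0.63 ± 0.16 (adjusted p 0.0129), again with no overlap. The other 6 genes of the mevalonate steps were not called, with log2 changes of 0.00 to 0.33. They were Acat2, the thiolase that opens the pathway (15.2 ± 0.648 and 19.3 ± 2.37 FPKM), Mvk, the mevalonate kinase (8.97 ± 0.286 and 9.41 ± 2.40), Mvd, the decarboxylase (20.6 ± 0.430 and 24.3 ± 4.52), Idi1 (2.50 ± 1.31 and 2.82 ± 1.52), Fdps (60.1 ± 6.59 and 69.0 ± 7.98) and Ggps1, which makes geranylgeranyl diphosphate (22.3 ± 3.74 and 22.2 ± 2.81). Acat2 and Idi1 have close paralogs, so that the placing of shared reads makes their levels less certain.

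Among the 11 genes after squalene synthesis begins, 3 were higher in WT KIT+ dSPG. Tm7sf2 had the largest change of all members. It was at 1.89, 2.25 and 1.68 FPKM in THY1+ and at 3.67, 4.28 and 4.09 FPKM in KIT+, a log2 change of 1.02 ± 0.20 (adjusted p 0.00274). Sc5d, the sterol desaturase, was at 15.8, 15.4 and 22.3 FPKM in THY1+ and at 30.3, 30.9 and 35.7 FPKM in KIT+, a change of 0.87 ± 0.17 (adjusted p 0.00267). Cyp51, the lanosterol demethylase, was at 23.4, 24.1 and 29.7 FPKM in THY1+ and at 32.7, 40.0 and 46.6 FPKM in KIT+, a change of 0.62 ± 0.16 (adjusted p 0.0124). In none of the 3 did the fractions overlap, and the share of all genes without overlap was not counted. The third library of each fraction was the highest for Sc5d and Cyp51.

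The remaining ring genes were not called. Sqle, the squalene epoxidase, was at 21.1 ± 2.31 FPKM in WT THY1+ and 25.0 ± 4.01 FPKM in WT KIT+, and Lss, the lanosterol synthase, at 9.03 ± 0.612 and 10.6 ± 1.85 FPKM. The demethylation genes Msmo1 (17.3 ± 3.99 and 21.8 ± 5.59 FPKM), Nsdhl (9.70 ± 1.51 and 12.3 ± 1.37) and Hsd17b7 (10.9 ± 1.79 and 13.1 ± 1.5) had log2 changes of 0.28 to 0.34. Dhcr7, a last-step reductase, was at 12.5 ± 2.33 and 12.8 ± 2.74 FPKM, with a 95% interval of the log2 change from -0.40 to 0.47. Fdft1 went the other way, from 38.5 ± 5.84 to 30.1 ± 2.51 FPKM, a log2 change of -0.35 ± 0.12 with an adjusted p of 0.0477, which was under 1.5-fold and so not a call.

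Soat1, which esterifies cholesterol for storage in droplets, was at 17.8, 18.5 and 14.2 FPKM in WT THY1+ and at 26.6, 34.2 and 24.9 FPKM in WT KIT+. It rose by 0.75 ± 0.16 (adjusted p 0.00416) with no overlap. Stard4, a cytosolic sterol carrier, was at 16.6 ± 1.54 and 16.5 ± 2.06 FPKM. No gene of SREBP control was called: Srebf1 was at 14.1 ± 1.71 and 11.3 ± 1.90 FPKM, Scap at 20.8 ± 3.69 and 26.7 ± 6.12 FPKM, Insig1 at 62.5 ± 11.0 and 67.9 ± 13.2 FPKM, and Insig2 at 6.53 ± 0.753 and 7.73 ± 1.28 FPKM. Srebf2 was at 30.3, 39.4 and 24.0 FPKM in THY1+ and at 13.7, 25.5 and 16.8 FPKM in KIT+. The fractions overlapped, and its log2 change of -0.76 ± 0.27 had an adjusted p of 0.0556. Srebf2 was called lower with median-of-ratios scaling (adjusted p 0.0470) and with a replicate block, as given at the end. Of the 12 fits without 1 library, 4 also called it lower (-1.01 to -0.56 over the 12). These were the fits without WT THY1+ replicate 3, WT KIT+ replicate 2, null THY1+ replicate 2 or null KIT+ replicate 2.

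**Figure D2:**
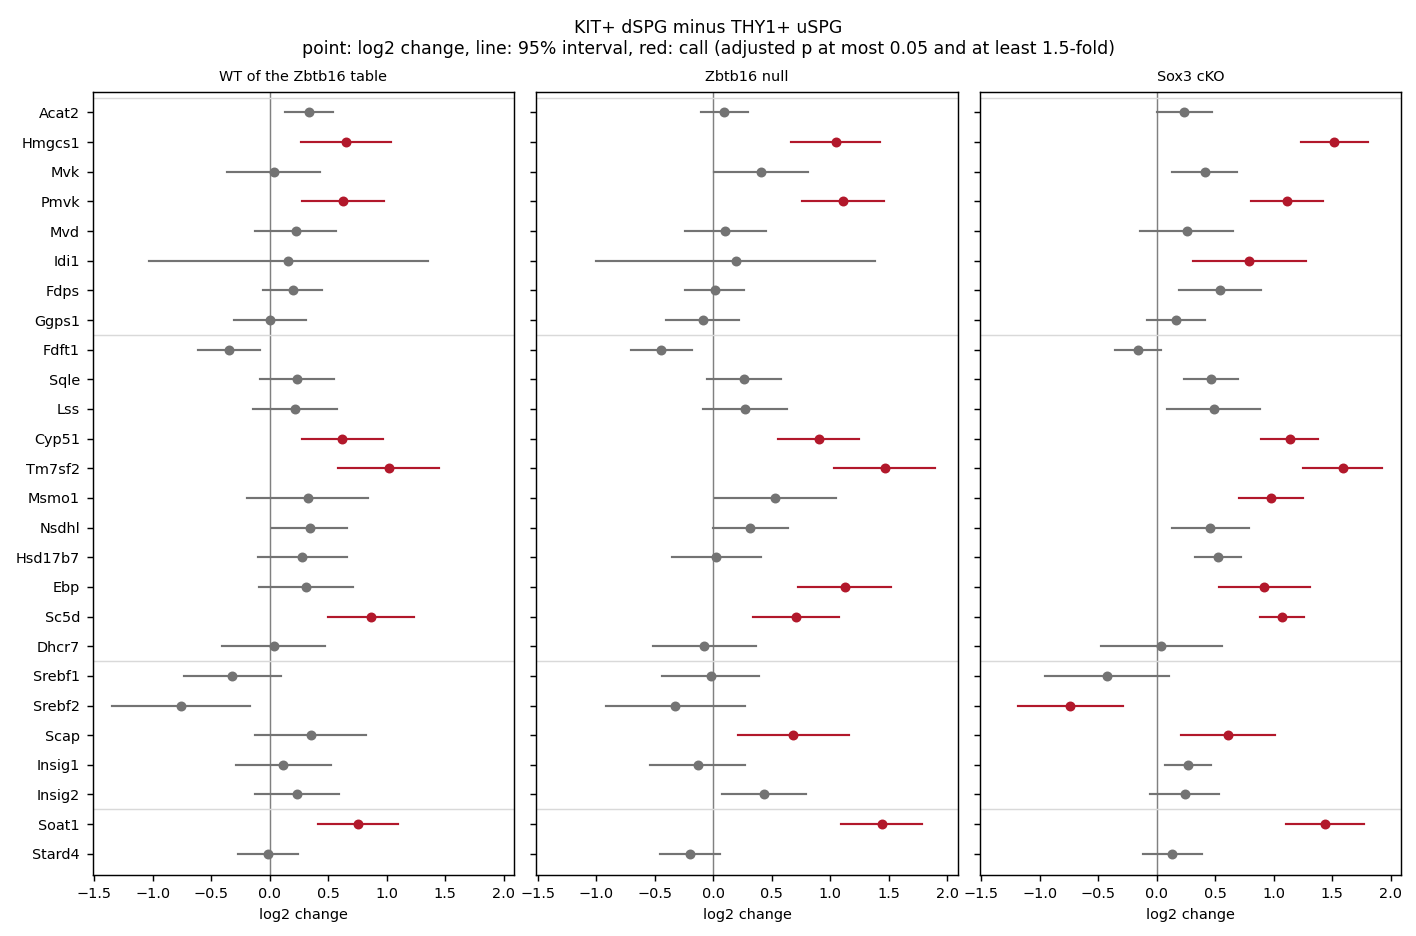
Log2 change of the 26 members between KIT+ dSPG and THY1+ uSPG (horizontal axes) in WT of the Zbtb16 table, Zbtb16 null and Sox3 cKO, with 95% intervals as lines and called members in red, ordered from top to bottom by role. Calls number 6, 8 and 11, and Srebf2 in the cKO is the single call to the left of 0.

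The same comparison in mutant cells gave more calls. In Zbtb16 null mice 8 members were higher in KIT+ dSPG and 0 lower, where 13.2% of all genes were higher and 16% lower, and the median log2 change was 0.27 against -0.05. In the Sox3 cKO 10 were higher and 1 lower, where 10.5% of all genes were higher and 12.2% lower, and the median was 0.47 against -0.02. The 6 members called in WT were called in all 3 comparisons, where 4.24% of the 21037 genes tested in both tables were called higher in all 3. A total of 19 members were above 0 in all 3 comparisons, 3 were below 0 in all 3, and 15 were called in none.

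Changes of the 6 shared members ran from 0.62 to 1.02 in WT, from 0.71 to 1.46 in the null and from 1.07 to 1.59 in the cKO. Hmgcs1 rose by 0.65 in WT, by 1.04 ± 0.17 in the null (adjusted p 0.000694) and by 1.51 ± 0.13 in the cKO (adjusted p 6.23e-06). Its null libraries were at 65.3, 65.8 and 74.9 FPKM in THY1+ and 112, 150 and 169 FPKM in KIT+, and its cKO libraries at 71.7, 72.0 and 82.2 FPKM and 250.5, 181 and 219 FPKM. The THY1+ libraries of these 3 fraction comparisons therefore lay close together, and their KIT+ libraries spread widely. Soat1 rose by 1.44 ± 0.16 in the null (adjusted p 3.83e-05) and by 1.44 ± 0.15 in the cKO (adjusted p 3.19e-05). Its levels were 14.2, 17.0 and 13.2 FPKM in null THY1+ and 36.8, 46.8 and 37.0 FPKM in null KIT+. In cKO THY1+ it was at 19.0, 18.5 and 20.1 FPKM and in cKO KIT+ at 53.9, 56.3 and 46.7 FPKM.

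For the other 4, Tm7sf2 rose by 1.46 ± 0.20 in the null (1.81 ± 0.421 to 5.17 ± 1.17 FPKM) and by 1.59 ± 0.15 in the cKO (2.15 ± 0.133 to 6.72 ± 1.02 FPKM). Pmvk rose by 1.11 in both, from 5.14 ± 0.893 to 11.2 ± 1.52 FPKM and from 5.92 ± 0.0450 to 13 ± 1.40 FPKM. Cyp51 rose by 0.90 ± 0.16, from 22.0 ± 2.94 to 41.2 ± 5.85 FPKM, and by 1.13 ± 0.11, from 22.5 ± 2.37 to 49.4 ± 1.83 FPKM. Sc5d rose by 0.71 ± 0.17, from 20.1 ± 3.76 to 32.6 ± 3.58 FPKM, and by 1.07 ± 0.09, from 16.6 ± 1.13 to 35.0 ± 1.35 FPKM. For none of the 6 did the fractions overlap in either mutant, and the share of all genes without overlap was again not counted. Over the fits that leave out 1 library, 1 of the 12 calls of these 6 members in the mutants was lost. It was that of Sc5d without null THY1+ replicate 2, where the lowest change was 0.56.

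Further members were called in the mutants alone, which does not show that they differ from WT. Ebp was at 2.89, 2.66 and 2.47 FPKM in null THY1+ and at 4.74, 6.45 and 6.78 FPKM in null KIT+, a log2 change of 1.12 ± 0.18 (adjusted p 0.000577). In the cKO it was at 4.18, 4.13 and 4.22 FPKM and at 8.38, 8.78 and 6.91 FPKM, a change of 0.92 ± 0.18 (adjusted p 0.00258). Scap rose by 0.68 ± 0.22 in the null (adjusted p 0.0259), from 18.4, 22.8 and 16.7 FPKM to 27.1, 41.6 and 25.9 FPKM, and by 0.61 ± 0.18 in the cKO (adjusted p 0.0282), from 24.0, 28.7 and 28.5 FPKM to 37.9, 41.9 and 43.9 FPKM. Msmo1 was at 15, 14.4 and 17.1 FPKM in cKO THY1+ and 33.8, 29.1 and 28.8 FPKM in cKO KIT+, a change of 0.97 ± 0.13 (adjusted p 0.000159). Idi1 was at 1.82, 1.76 and 1.81 FPKM and at 3.91, 2.77 and 2.96 FPKM, a change of 0.79 ± 0.22 (adjusted p 0.0190). In none of these did the fractions overlap. The Scap call in the null was lost without null THY1+ replicate 1 or 3 or null KIT+ replicate 2 (0.47 to 0.81) and in the cKO without THY1+ replicate 1 or 3 or KIT+ replicate 2 or 3 (0.53 to 0.67). The Idi1 call was lost without cKO THY1+ replicate 3 or cKO KIT+ replicate 1 (0.65 to 0.89).

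Srebf2 moved against the enzymes. It was at 29.7, 34.2 and 36.1 FPKM in cKO THY1+ and at 16.6, 20.8 and 22.7 FPKM in cKO KIT+, a log2 change of -0.74 ± 0.21 (adjusted p 0.0189). This call was lost without cKO THY1+ replicate 2 or 3 or cKO KIT+ replicate 1 (-0.83 to -0.61). In the null its change was -0.32, with an adjusted p of 0.377. Srebf1 was below 0 in all 3 comparisons without a call, at -0.32, -0.02 and -0.43. Fdft1 was the third member below 0 in all 3, at -0.35, -0.44 and -0.16. Insig1 changed by 0.12, -0.13 and 0.27, and none of these was a call.

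The Leydig marker sums were also higher in KIT+ in these comparisons. In KIT+ their means were 1917 FPKM in WT, 2821 FPKM in the null and 3685 FPKM in the cKO, and Hmgcs1 stood at 122, 144 and 217 FPKM and Soat1 at 28.6, 40.2 and 52.3 FPKM in the same order. All 8 Leydig markers were called higher in KIT+ in each of the 3 comparisons, with median log2 changes of 3.88, 5.28 and 4.88. The changes of Hmgcs1 were 0.65, 1.04 and 1.51, those of Soat1 0.75, 1.44 and 1.44, and those of Sc5d 0.87, 0.71 and 1.07. Within each of the 4 groups with high Kit, the library with the lowest Leydig sum also had the lowest Hmgcs1 level, and in 3 of the 4 the library with the highest sum had the highest. For Soat1 each of these held in 2 of the 4 groups. Nsdhl, which was not called, gave the same counts as Hmgcs1, and Insig1 the same as Soat1. For Cyp51 the counts were 2 and 3, and for Mvk, which was not called, 4 and 1. The same counts over all genes were not made, so the order does not single out any member. The macrophage sums moved the opposite way, from 825 to 6.95 FPKM in WT, from 499 to 9.71 FPKM in the null and from 976 to 8.61 FPKM in the cKO. In WT 3 of 6 peritubular and stromal markers were called lower in KIT+, with sums of 426 ± 78.8 FPKM in THY1+ and 209 ± 54.7 FPKM in KIT+. There 1 of 5 endothelial markers was lower, and 1 of 8 Sertoli cell markers was called in each direction. In the null 6 of 8 Sertoli cell and 2 of 5 endothelial markers were called higher in KIT+, and 1 Sertoli marker lower. In the null 1 of 6 peritubular and stromal markers was higher, with sums of 267 ± 59.3 and 355 ± 101 FPKM. Of 6 germ cell markers 3 were lower in the null, with germ cell sums of 1387 ± 182 and 917 ± 183 FPKM. In the cKO 3 of 5 endothelial markers were higher and 2 of 6 germ cell markers lower, with germ cell sums of 1118 ± 91.6 and 904 ± 135 FPKM. The part of these cells in the changes of the members was not tested.

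**Figure D3:**
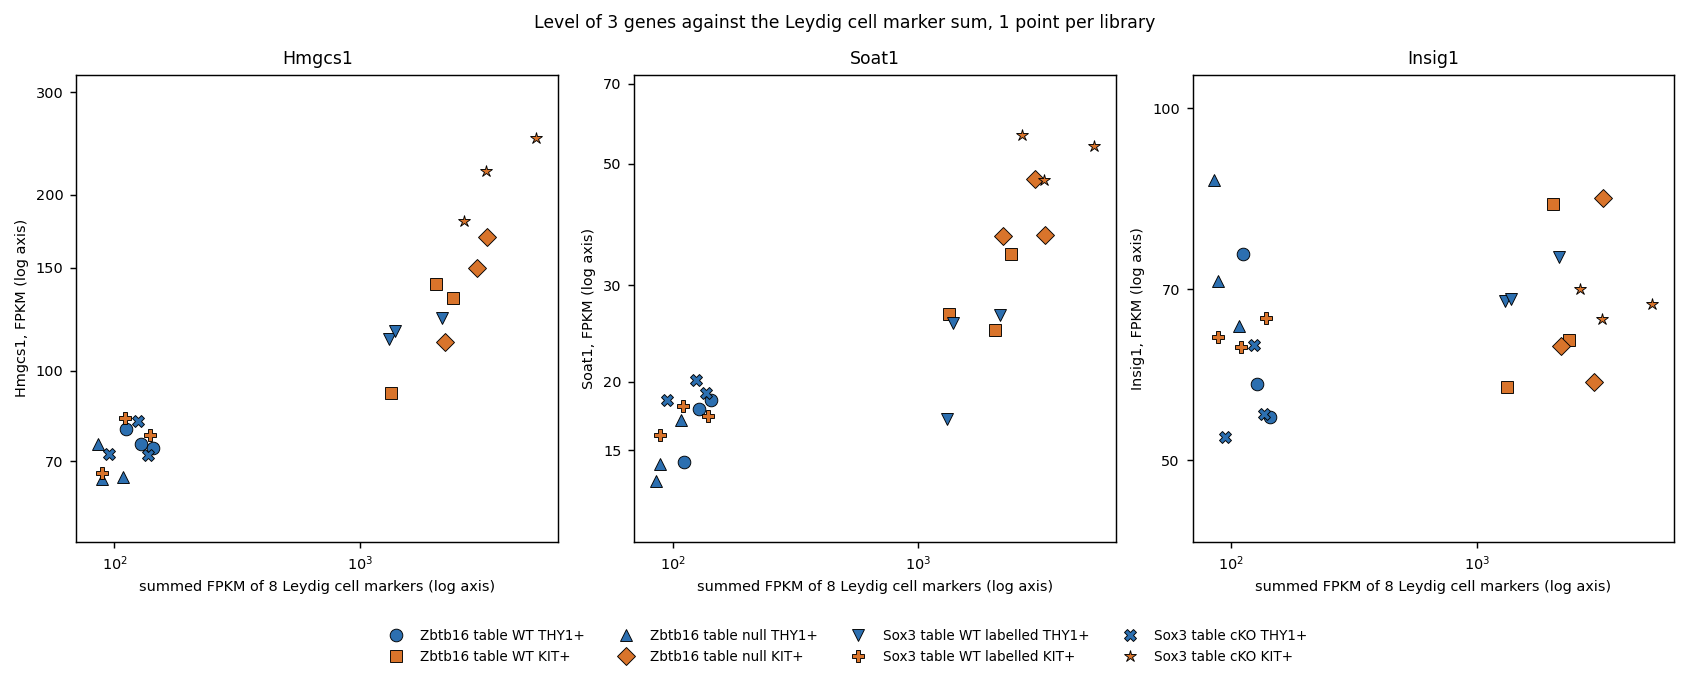
FPKM of Hmgcs1, Soat1 and Insig1 (vertical, log axes) against the summed FPKM of 8 Leydig cell markers (horizontal, log axis), with 1 point per library, blue for labelled THY1+ and orange for labelled KIT+. The 12 libraries with sums from 85.8 to 144 FPKM hold Hmgcs1 at 65.3 to 83.0 FPKM and the 12 with sums from 1307 to 5191 FPKM hold it at 91.6 to 250.5 FPKM, while the Insig1 levels of these sets overlap.

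The next question was whether loss of ZBTB16 changes the pathway. In THY1+ uSPG 0 of 26 members were called in null against WT by limma, where 3.98% of all genes were. Ebp alone among the members had an unadjusted p under 0.05, as had 5325 of all 22374 genes. In KIT+ dSPG 0 were called, where 0.259% of all genes were. Soat1 alone among the members had an unadjusted p under 0.05, as had 3863 of all genes. The median log2 change was -0.07 in THY1+ and 0.01 in KIT+, against -0.03 and 0.01 over all genes. Averaged over both fractions, 0 were called (2.3% of all genes) and 0 had an unadjusted p under 0.05 (4072 of all genes).

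Ebp was at 3.67, 3.52 and 3.99 FPKM in WT THY1+ and at 2.89, 2.66 and 2.47 FPKM in null THY1+. The groups did not overlap, with a log2 change of -0.47 ± 0.18 and an adjusted p of 0.153. Soat1 in KIT+ was at 26.6, 34.2 and 24.9 FPKM in WT and at 36.8, 46.8 and 37.0 FPKM in the null, also with no overlap, a log2 change of 0.50 ± 0.16 and an adjusted p of 0.187. For Ebp and Soat1 the fraction change was larger in the null than in WT, by 0.81 ± 0.26 and 0.68 ± 0.22, but the adjusted p of this interaction was 0.120 and 0.124. No member was called for the interaction in this fit, where 0.0313% of all genes were. Of the members 2 had an unadjusted p under 0.05, as had 5014 of all 22374 genes. A fit with a replicate block called Ebp and Soat1 for the interaction, along with many more of all genes, as given at the end.

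The intervals say how large a change this fit allows, and they include any shift between replicate numbers, since the fit holds no replicate term. In THY1+ uSPG the 95% interval stayed within 1.5-fold in both directions for 18 of 26 members, and in KIT+ dSPG for 17 of 26. Averaged over both fractions it did for 24 of 26, all but Idi1 and Srebf2. Idi1 was the least precise member in the Zbtb16 table. All 4 of its libraries of replicate 3 lay at 4.0 to 6.66 FPKM and all 8 of replicates 1 and 2 at 1.51 to 2.96 FPKM, whatever the genotype or fraction. Srebf2 was at 30.3, 39.4 and 24.0 FPKM in WT THY1+ and at 20.02, 29.8 and 18.6 FPKM in null THY1+, overlapping, with a log2 change of -0.45 and an interval from -1.05 to 0.14. The Leydig marker sums of these groups were 128 ± 16.1 FPKM in WT THY1+ and 94.4 ± 12.2 FPKM in null THY1+.

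**Figure D4:**
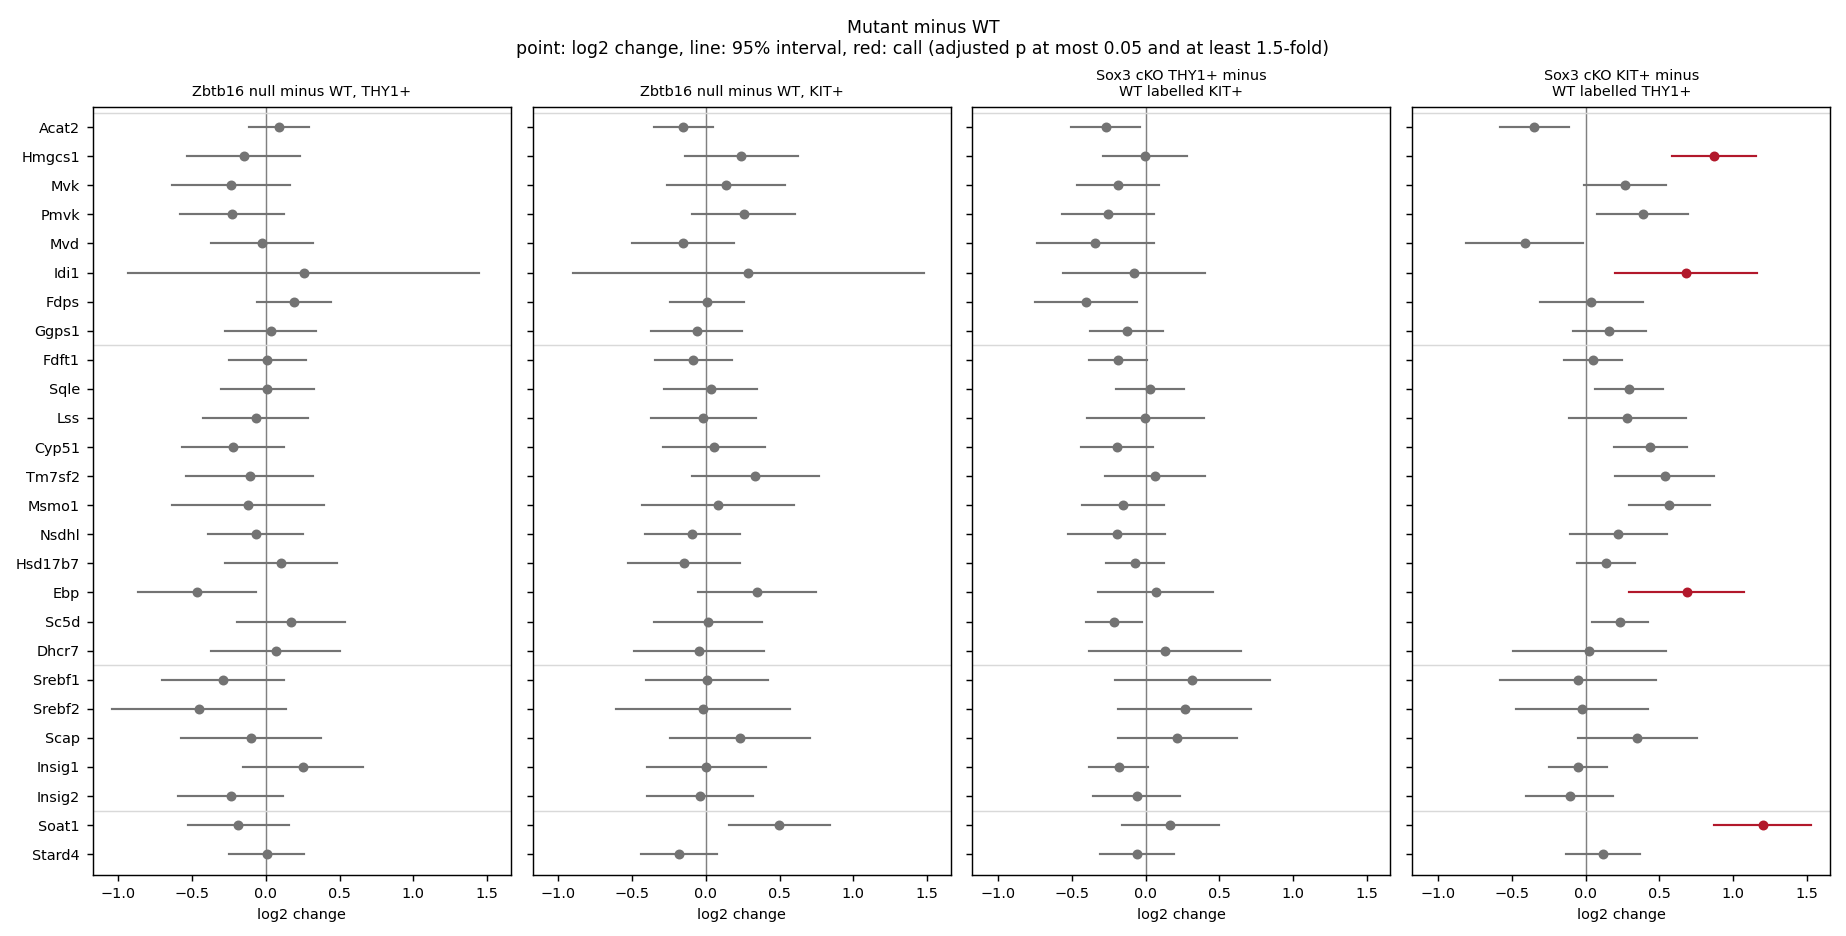
Log2 change of the 26 members between mutant and WT (horizontal axes) with 95% intervals as lines and called members in red, ordered by role from top to bottom. The Zbtb16 null comparisons and cKO THY1+ against WT labelled KIT+ hold 0 calls, and cKO KIT+ against WT labelled THY1+ holds 4, which are Hmgcs1, Idi1, Ebp and Soat1.

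Loss of SOX3 in germ cells was first compared as labelled. In the groups labelled THY1+ 1 member was higher and 6 were lower in the cKO, where 17.8% of all genes were higher and 11.3% lower. In those labelled KIT+ 10 were higher and 0 lower, where 12.4% and 12.6% of all genes were. The members lower in the cKO labelled THY1+ were Hmgcs1 (-0.65), Pmvk (-0.72), Mvd (-0.67), Cyp51 (-0.70), Tm7sf2 (-1.05) and Sc5d (-0.84), and the higher one was Srebf2 (0.71). The 10 higher in the cKO labelled KIT+ were Tm7sf2 (1.65), Soat1 (1.60), Hmgcs1 (1.51), Ebp (0.99), Cyp51 (0.94), Sc5d (0.86), Pmvk (0.85), Scap (0.82), Msmo1 (0.82) and Idi1 (0.71). In both contrasts the compared libraries have opposite sorting markers, and the Leydig markers moved by medians of -3.46 and 5.33, so genotype and fraction cannot be told apart in them. They also share their cKO libraries with the fraction comparison of the cKO.

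Between the WT groups of this table the same genes stood in the order of the markers and against the labels. WT labelled KIT+ had 3 members lower than WT labelled THY1+ and 0 higher, where 13.1% of all genes were higher and 6.53% lower. They were Hmgcs1 (-0.64 ± 0.13, adjusted p 0.00390), Tm7sf2 (-1.12 ± 0.15, adjusted p 0.000273) and Sc5d (-0.63 ± 0.09, adjusted p 0.000271). The Hmgcs1 call was lost without WT labelled KIT+ replicate 1 (-0.71 to -0.55) and that of Sc5d without WT labelled THY1+ replicate 1 (-0.67 to -0.58). Hmgcs1 was at 123, 113 and 117 FPKM in WT labelled THY1+ and at 67.0, 77.5 and 83.0 FPKM in WT labelled KIT+.

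Groups with like Thy1 and Kit levels were then set side by side. For cKO THY1+ against WT labelled KIT+ limma called 0 of 26 members, where 0.0707% of all genes were called. Sc5d, Acat2 and Fdps had an unadjusted p under 0.05, all lower in the cKO, with log2 changes of -0.21, -0.27 and -0.41. The 95% interval stayed within 1.5-fold for 20 of 26 members. Hmgcs1 was at 71.7, 72.0 and 82.2 FPKM in the cKO and overlapped the WT values given above.

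For cKO KIT+ against WT labelled THY1+ 4 members were higher and 0 lower, a share close to that of all genes, of which 12.4% were higher and 4.57% lower. Soat1 was at 26.5, 17.1 and 25.6 FPKM in WT and at 53.9, 56.3 and 46.7 FPKM in the cKO, a log2 change of 1.2 ± 0.15 (adjusted p 0.00169). Hmgcs1 changed by 0.87 ± 0.13 (adjusted p 0.00249), Ebp by 0.68 ± 0.18 (adjusted p 0.0181) and Idi1 by 0.68 ± 0.22 (adjusted p 0.0434). Ebp was at 5.88, 4.68 and 4.36 FPKM in WT, and Idi1 at 2.41, 1.93 and 1.58 FPKM, both below every cKO KIT+ library. Soat1 and Hmgcs1 were called without each of the 12 libraries in turn, Ebp in 8 and Idi1 in 4 of these 12 fits. The count fell to 2 without WT labelled THY1+ replicate 2 or 3 or cKO KIT+ replicate 1. Mvd went the other way, at 31.1, 29.8 and 43.1 FPKM in WT and 22.1, 25.5 and 29.8 FPKM in the cKO, with a log2 change of -0.41 and an adjusted p of 0.117. The Leydig markers were higher in the same cKO libraries, with a median change of 1.30 and 5 of 8 called. Endothelial markers had 4 of 5 called higher and germ cell markers 2 of 6 called lower, and 3 of 7 macrophage markers were higher. Markers of differentiating SPG had 3 of 5 called lower, with sums of 377 ± 32.9 FPKM in WT and 225 ± 27.6 FPKM in the cKO, and those of undifferentiated SPG had 2 of 6 called higher, so these groups were not alike in all stage markers. Their part in the result was not tested.

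Averaging the effect of the cKO over its fractions gives a value that does not depend on which WT group is THY1+. It held 1 call among the members, where 7.49% of all genes were higher and 2.83% lower. Soat1 rose by 0.68 ± 0.11 (adjusted p 0.00311), a call that was lost without WT labelled THY1+ replicate 2, its lowest library of that group, when the change fell to 0.58. Hmgcs1 (0.43, adjusted p 0.00821), Ebp (0.38, adjusted p 0.0481) and Acat2 (-0.31, adjusted p 0.0137) passed the p threshold but not 1.5-fold. The interval stayed within 1.5-fold for 21 of 26 members. The Leydig markers changed by a median of 0.86 in this contrast, with 4 of 8 called higher.

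The lipid genes next to the pathway were described with the same fits. Of 10 fatty acid synthesis genes, targets of SREBP-1, 3 were higher in WT KIT+ dSPG, 3 in the null and 4 in the cKO, with 0 lower, where 7.21%, 13.2% and 10.5% of all genes were higher, though the list's medians were -0.11, 0.14 and 0.34. Me1, the malic enzyme that supplies NADPH, rose from 17.3 to 48.5 FPKM in WT (log2 change 1.46), with changes of 2.22 in the null and 2.44 in the cKO. Fads2 and Fads1, the desaturases of polyunsaturated fatty acids, rose by 1.5 and 1.03 in WT, by 2.17 and 1.76 in the null and by 2.08 and 1.78 in the cKO. Scd2, a stearoyl-CoA desaturase, was called in the cKO alone, with a change of 0.69. Acly, Acss2, Acaca, Fasn, Elovl6 and Scd1, the genes that make and extend saturated chains among them, were called in none of the 3.

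Of 10 genes of sterol uptake, efflux and transport, the same 4 were called in each of the 3 fraction comparisons, 1 higher and 3 lower, where 14%, 16% and 12.2% of all genes were lower. Scarb1, the receptor for high-density lipoprotein, was higher in KIT+, from 6.84 to 27.4 FPKM in WT (log2 change 1.92), with 2.71 in the null and 2.61 in the cKO. Lipa, the lysosomal acid lipase, Abcg1, a sterol exporter, and Mylip, the ligase that degrades lipoprotein receptors, were lower in KIT+, by -1.79, -1.62 and -1.02 in WT. In the null they changed by -0.88, -1.21 and -0.79, and in the cKO by -1.07, -1.57 and -1.47. These 3 fell where the macrophage sum fell, and the part of macrophages was not tested.

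Of 11 genes that use isoprenoids for prenylation, dolichol and ubiquinone, 0 were called in WT, and Dolk, the dolichol kinase, was called higher in the null (0.72) and in the cKO (0.61), where 13.2% and 10.5% of all genes were.

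Without ZBTB16 these neighbours held 0 calls, as the members did, but in the Sox3 table the lists differed. In null against WT 0 genes of the fatty acid, uptake and isoprenoid lists were called in either fraction. Of all genes 3.98% were called in THY1+ and 0.259% in KIT+. In THY1+ the median log2 changes of these lists were -0.26, -0.21 and 0.03, against -0.07 for the members. Averaged over the Sox3 table, Me1 (0.88), Fads1 (0.75) and Scd2 (0.64) of the fatty acid list and Scarb1 (0.68) and Lipa (0.68) of the uptake list were higher in the cKO, where 7.49% of all genes were. The isoprenoid list held 0 calls there, and the 26 members held 1. In cKO KIT+ against WT labelled THY1+ 5 of 10 fatty acid genes were higher, where 12.4% of all genes were: Me1 (1.42), Fads1 (1.22), Elovl6 (1.04), Scd2 (1.0) and Fads2 (0.87). In the same contrast 2 of 10 uptake genes, 0 of 11 isoprenoid genes and 4 of 26 members were called higher. This contrast shares its cKO libraries with the fraction comparison of the cKO, so the values are not independent of those above.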

How the data were processed

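RNA of sorted SPG was sequenced as single reads from stranded libraries depleted of ribosomal RNA. The authors aligned the reads to the mouse genome (mm10 with Ensembl annotation) with Novoalign, under a setting that can place a read at several positions, and deposited FPKM per gene and library made with USeq. Whether counting used strand is not given in the sources used here. The authors ran DESeq2 on counts, which were not analysed here, so limma replaced a count test.

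The 2 tables were normalized separately and were tested separately. Groups followed the labels, also in the Sox3 table, where sorting markers of WT libraries went against them. Genes with a mean of at least 0.1 FPKM over the 12 libraries of a table (22374 and 21212 genes) were fitted as log2(FPKM + 0.1) with 4 group means in limma 3.58.1 (R 4.3.3; lmFit and eBayes with trend and robust estimation), and log2 changes are on that scale, which understates those of low genes. Tests were two-sided, with Benjamini-Hochberg adjustment over all genes of a comparison. A call was an adjusted p of at most 0.05 with at least 1.5-fold change. Reads per library were estimated from the step between low FPKM values, and intervals cover the spread between libraries. The fit was tested on simulated data. Tables were handled in Python 3.11.15 with pandas 2.3.3.

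Every member was named, with values per library for those the results turn on and means with SD or log2 changes for the others. The members and the gene lists were chosen with earlier results of these data known, and the order of libraries by Leydig sum was examined after the data were seen. Genes of the pathway that are not named here are not reported. Alternatives were pseudocounts of 1 and 0.01, no filter, a filter at a mean of 1 FPKM, median-of-ratios scaling, a replicate block, the compared groups alone, replicates 2 and 3 alone in the Sox3 table, and leaving out each library. Columns of no sample numbered 0.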

Additional observations from a re-analysis of the deposited data

How the results depend on the processing

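Of the results for single members under the alternatives, 6436 kept their side of the thresholds, 28 passed them newly, 62 no longer did, and 0 changed sign among the calls. The 6436 include 494, 494 and 468 for null against WT in THY1+, in KIT+ and averaged, where no setting called any member. Only calls can be among the 62, so the total does not measure how stable the calls are. Leaving out 1 library in turn moved the member calls to 3 to 7 in the WT fraction comparison of the Zbtb16 table (6 with all libraries), to 2 to 5 between the WT groups of the Sox3 table (3), to 0 to 1 for the averaged Sox3 effect (1), and to 2 to 5 for cKO KIT+ against WT labelled THY1+ (4). With replicates 2 and 3 alone, which leaves out the more deeply sequenced Sox3 libraries, calls numbered 4 in place of 7 for the groups labelled THY1+ and 2 in place of 4 for cKO KIT+ against WT labelled THY1+, where Ebp and Idi1 were lost. That fit also ended the calls of Hmgcs1, Mvd and Srebf2 in the as-labelled THY1+ contrast, of Idi1 and Scap in the as-labelled KIT+ contrast, of Idi1, Srebf2 and Scap between the cKO fractions, and of Hmgcs1 between the WT groups of that table. Fewer libraries were fitted in these, and other causes were not tested. In the as-labelled THY1+ contrast, leaving out 1 library ended the Mvd call (-0.79 to -0.50) without WT labelled THY1+ replicate 3 or cKO THY1+ replicate 1, and the Srebf2 call (0.59 to 0.94) without WT labelled THY1+ replicate 1 or 2 or cKO THY1+ replicate 2 or 3. In the as-labelled KIT+ contrast it ended the Idi1 call (0.50 to 0.83) without WT labelled KIT+ replicate 3 or cKO KIT+ replicate 1. A pseudocount of 1 ended the Pmvk call in the WT fraction comparison and the Idi1 call in the as-labelled KIT+ contrast, between the cKO fractions and in cKO KIT+ against WT labelled THY1+. Fitting the compared groups alone ended the Idi1 call in the as-labelled KIT+ contrast and in cKO KIT+ against WT labelled THY1+. Median-of-ratios scaling moved the median change of all genes by at most 0.027.

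Libraries of different groups that share a replicate number correlated in their deviations from the group means by 0.327 on average in the Zbtb16 table (-0.0278 to 0.520 over 18 pairs, 16 over 0.1) and by 0.147 in the Sox3 table (-0.119 to 0.348, 12 over 0.1), so not every pair passed 0.1 and the numbers were not taken as pairs. With the replicate block the Zbtb16 interaction held 2 member calls in place of 0, Ebp (0.81) and Soat1 (0.68), while the calls over all genes went from 7 to 2756 of 22374. The block also called Srebf2 lower in the WT fraction comparison (-0.76, adjusted p 0.000376). The compared groups alone could not be fitted for the interaction and averaged effects, which use all 4 groups.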
